A study of Mus musculus with 2 samples.

Results

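A transcribed contig is a stretch of genome covered by reads on 1 strand without a break, and the 377 contigs described here are those of at least 3000 bases with a deposited signal of at least 1. They were chosen by length and signal from the 332255 contigs of the series, so neither property is a finding about them. The signal threshold removed none, because every contig of at least 3000 bases had a signal of 1.33 or more. The contigs just inside the length threshold were 3000, 3005 and 3005 bases long, with signals of 88.2, 35.8 and 2.35, and those just outside were 2996, 2994 and 2994 bases long, with signals of 17.4, 6.42 and 13.0.

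The tissue was whole stomach of C57BL/6J mice at 8 weeks of age, labelled as pooled from males and females that were littermates, with no treatment named. The mix of sexes was not tested, and Xist was at 0.0 and 0.01 TPM in replicates 1 and 2. There was 1 group of 2 libraries (replicates 1 and 2), both from polyadenylated, ribosomal-RNA-depleted RNA longer than 200 nucleotides, read in pairs of 76 nucleotides with the strand kept. Both libraries cite the same donor record and nothing says that they came from separate animals, so the spread between them may be technical. The contig table is 1 pooled table, and only the gene and transcript tables give a value for each library. The signal is proportional to the mean read coverage of a contig, with 1 unit of coverage worth 0.0491 units of signal. Mouse genes held 51633637 estimated read pairs in replicate 1 and 61635982 in replicate 2. Markers of chief cells, pit cells, squamous forestomach and smooth muscle were detected in both libraries, with mean TPM, a length-normalised share of the library's transcripts, of 124897 for Pgc, 29206 for Tff1, 484 for Krt4 and 1213 for Acta2. Those of pancreas were near 0 (Pnlip at 0.37 and Cela3b at 0.765), and those of liver and blood were at 0.345 for Alb and 169 for Hba-a1.

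Messenger RNA is made as a long precursor whose introns are cut out while its exons are joined at a donor site (the end of 1 exon) and an acceptor site (the start of the next). Because most exons of a mammalian gene are short, a long unbroken contig can arise where an exon is very long, as in the last exons that carry long 3′ untranslated regions (UTRs), in the large coding exons of scaffold proteins and mucins, or in unspliced nuclear noncoding RNAs. It can also cross introns where reads from unspliced or partly spliced RNA fill them. Long 3′ UTRs carry binding sites for microRNAs and RNA-binding proteins.

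Sequences at the edges are shown first for coding contigs, because 14 of the 47 coding contigs began within 10 bases of a splice acceptor and 15 ended within 10 bases of a donor. Each line gives 40 bases of the GENCODE M21 transcript across an exon join, with the bases that lie inside the contig in capitals. Nacad, Cspg4, Zfp423 and Nhsl1 had an exon join at both edges, so that the contig spans 1 internal coding exon from end to end, whereas Celsr2, Mn1, Pkd1 and the shorter Plec contig are shown for an edge that fell exactly on the last base of an exon and Dsp for an edge on the first base of its last exon.
Nacad, 5′ edge: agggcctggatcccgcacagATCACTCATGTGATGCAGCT
Nacad, 3′ edge: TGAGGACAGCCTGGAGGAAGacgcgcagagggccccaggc
Cspg4, 5′ edge: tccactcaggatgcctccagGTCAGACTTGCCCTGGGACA
Cspg4, 3′ edge: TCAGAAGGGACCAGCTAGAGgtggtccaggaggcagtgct
Zfp423, 5′ edge: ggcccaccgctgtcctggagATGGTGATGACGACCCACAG
Zfp423, 3′ edge: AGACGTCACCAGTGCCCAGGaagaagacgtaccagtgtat
Nhsl1, 5′ edge: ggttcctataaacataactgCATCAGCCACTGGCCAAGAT
Nhsl1, 3′ edge: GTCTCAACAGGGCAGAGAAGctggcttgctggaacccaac
Dsp, 5′ edge: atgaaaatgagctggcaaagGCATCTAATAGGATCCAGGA
Celsr2, 3′ edge: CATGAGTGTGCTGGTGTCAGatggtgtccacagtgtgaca
Mn1, 3′ edge: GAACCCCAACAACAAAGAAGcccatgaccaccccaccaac
Pkd1, 3′ edge: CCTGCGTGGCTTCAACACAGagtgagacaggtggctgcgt
Plec (shorter contig), 3′ edge: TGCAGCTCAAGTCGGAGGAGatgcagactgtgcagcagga
The Zfp423 contig (chr8:90304098-90307312, minus strand, mm9; a zinc finger transcription factor) met both exon joins to the base, with 14 junction reads at its acceptor and 3 at its donor. The contig of Nacad (chr11:6499379-6502926, minus strand) began 5 bases before its exon and ended on its last base, with 14 and 34 junction reads. For Cspg4, a membrane proteoglycan of pericytes (chr9:56733036-56736602, plus strand), the contig ran 6 bases into the intron before the exon and 9 bases into the intron after it, with 130 and 60 junction reads. At Nhsl1 (chr10:18243596-18246857, plus strand), these overhangs were 1 and 9 bases. The Dsp edge rested on only 2 junction reads.

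A gene could be tied to 307 contigs (298 genes) through splice junctions that matched annotated introns and ended at or inside the contig. Another 33 lay mostly inside exons of a gene whose matched splice sites were nearby, 18 were named from the annotated gene between their neighbours, and 19 were left without a gene. Of the genes that averaged 1 TPM or more, 3.02% (350 of 11582) had a long contig tied in any of these ways. The share was 8.75% (175 of 2001) of those with an annotated exon of at least 3000 bases and 26.4% (62 of 235) of those that also averaged 20 TPM or more. Contigs were chosen by length and signal, and these sets of genes differ in exon length and abundance, so the shares are descriptions. The 296 tied genes in the deposited gene tables had a median TPM of 29.7, with 30.8 in replicate 1 and 29.99 in replicate 2, against 7.83 for all 11582 genes that averaged 1 TPM or more. There were 10 genes with more than 1 long contig. Neat1 had 3, and Plec, Rai1, Muc5ac, Ucp2, Cttn, Slc9a8, Chpf2, Mgll and Capn8 had 2 each.

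What the gene models hold along the 340 placed contigs fell into a few kinds. In 146, more than 50% of the bases were 3′ UTR, in 82 they were intron, in 47 coding, in 13 beyond the annotated gene and in 4 noncoding exon, and in 48 no kind reached 50%. Contigs of mostly 3′ UTR had a median signal of 11.3, against 12.2 for coding, 15.2 for intron and 32.8 for those without a majority. Their ranges overlapped widely, and among placed contigs the highest signals stood in the intron and no-majority kinds.

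**Figure D1:**
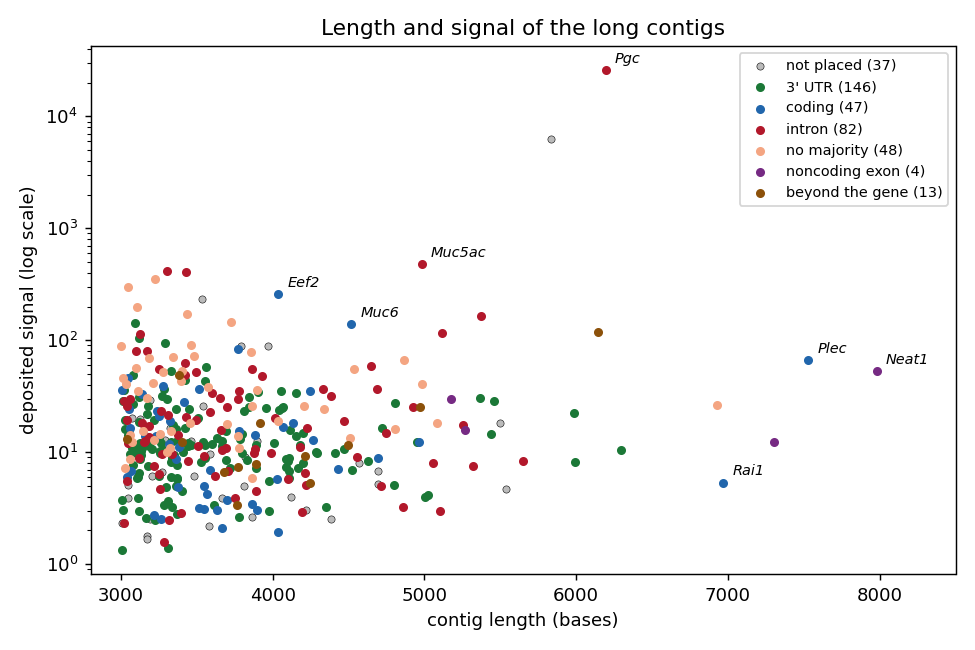
Each point is 1 of the 377 contigs, with its length in bases on the x axis and its deposited signal on a log y axis, coloured by what the gene models hold in most of its bases. Most contigs lie at the short end with signals under 100, the longest is the Neat1 contig at 7980 bases, and the Pgc contig stands at a signal of 26000.

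The 3′ UTR contigs came from genes of many functions. The longest were Arrb1 (chr7:106749352-106755647, plus strand; beta-arrestin, an adaptor of G protein-coupled receptors) at 6296 bases and a signal of 10.5, Cds2 (an enzyme of phosphoinositide synthesis) at 5993 bases and 8.17, and Ppp1r12b (a myosin phosphatase subunit) at 5987 bases and 22.4. Next came Abhd2, a lipase-fold enzyme, at 5459 bases and 28.7. In Cds2 all of the bases were 3′ UTR, and in Ppp1r12b 94.6% were. The Arrb1 contig was 88.4% 3′ UTR and ran 366 bases past the nearest annotated transcript end. The 3′ UTR contig of highest signal belonged to Mknk2, a kinase that acts on the cap-binding factor eIF4E, at 142 over 3092 bases, of which 57.7% were 3′ UTR and 28.3% intron.

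Of their 146 3′ edges, 43 ended within 10 bases of an annotated transcript end and 68 within 50 bases. Another 61 stopped more than 50 bases short, 32 of them more than 200 bases short, and 17 ran more than 50 bases past. The 10 that ran more than 200 bases past included Slc26a9 (812 bases), a chloride transporter of gastric epithelium, whose contig had a signal of 17.5 and whose gene was at 32.5 TPM in both replicates. The others were Ankrd52, B3gnt3, Mgll, Mmp28, Ascc2, Dgcr2, Rxra, Arrb1 and Nacc1, with excesses of 259 to 1197 bases. Annotated ends are those of GENCODE M21, a later annotation than the M4 set behind the deposited quantifications.

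**Figure D2:**
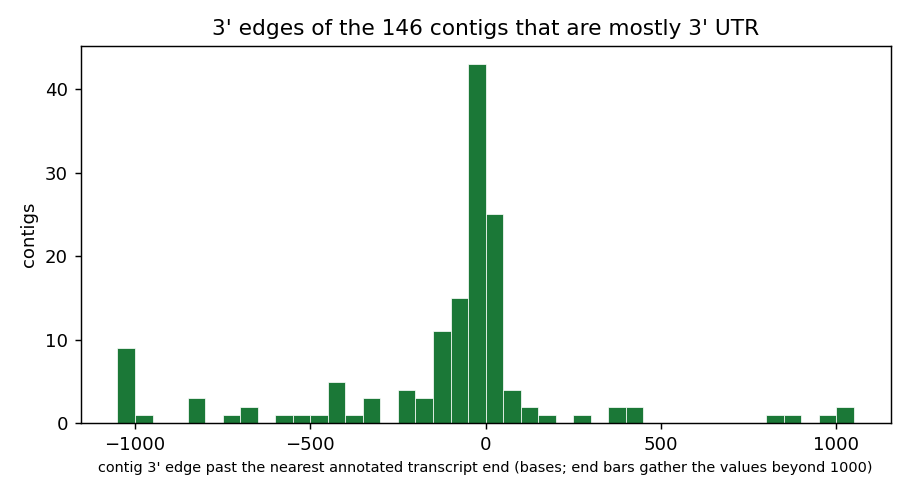
The histogram counts the 146 contigs of mostly 3′ UTR by how far their 3′ edge lies past the nearest annotated transcript end, in bins of 50 bases, with values beyond 1000 bases gathered in the end bars. The tallest bars lie on either side of 0, where 68 contigs ended within 50 bases, and the left side holds more contigs than the right.

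Where an annotated isoform carried the 3′ UTR contig, transcript quantification mostly placed at least 50% of the gene's TPM on such isoforms. Contigs and quantification rest on the same reads, so these shares are descriptions. For 109 of the 146, at least 1 annotated transcript of the deposited tables covered 90% or more of the contig. In replicates 1 and 2 these transcripts held a median of 96.0% and 92.6% of the gene's TPM. In 86 genes they held at least 50% in both replicates and in 19 under 50% in both. Among those 19, named after their values were seen, Cxcl12 (the chemokine ligand of CXCR4) was at 72.5 and 70.8 TPM with 8.76% and 10.8% of it on the covering transcripts, beside a contig signal of 7.69. Fzd5, a Wnt receptor, was at 25.4 and 28.4 TPM with 11.4% and 17.9%, beside a contig signal of 2.56. In both genes, and in both libraries, most of the TPM was on transcripts that do not cover the contig.

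Contigs of mostly coding bases numbered 47, of which 36 belonged to genes with an annotated exon of at least 3000 bases and 11 to genes without one. The longest was Plec (chr15:76001404-76008932, minus strand), which encodes plectin, a linker of intermediate filaments, with 7529 bases at a signal of 66.2, of which 82.5% were coding. A second Plec contig of 4027 bases lay 16 bases away, in the direction of the gene's start, at a signal of 5.78. The step between them is from 1348 to 118 reads of mean coverage, and the transcripts that covered the longer contig held 99.6% and 99.9% of the gene's TPM. The 3′ edge of the longer contig lay exactly at an annotated end, and that of the shorter one is the exon join printed above, with 51 junction reads. Rai1, a transcription regulator, followed with 6970 bases (79.2% coding) at 5.35, and 37 bases further on lay a second contig of 3393 bases (97.2% intron) at 2.89. Ahdc1, a DNA-binding protein gene, had 4967 bases at 12.2.

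Among contigs with over 90% coding bases, those of Muc6, Srrm2 and Son had the highest signals. Srrm2, a serine- and arginine-rich splicing coactivator, was 97.0% coding over 3770 bases at a signal of 83.3, and Son, another nuclear speckle protein, was 100% coding over 4245 bases at 35.1. Muc6, the secreted mucin of neck and gland cells, was 91.9% coding over 4518 bases at 140. The Eef2 contig (translation elongation factor 2) was stronger at 258, but 35.4% of its 4037 bases were intron.

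Repeated coding sequence was frequent in a few of these contigs. A 30-base stretch that occurs more than once was found in 6 of the 47, against 5.16% of the 2113 coding sequences of at least 3000 bases in genes with 10 or more read pairs. The stretch with the highest count was a run of agc in Kmt2d, at 10, where 1.92% of all 30-base windows recurred. Windows were taken at every base, so overlapping windows of a run are counted too and need not be separate copies. In Muc6 33.5% of the windows recurred and in Son 6.31%, and the stretch shown for each occurred 4 times.
Kmt2d: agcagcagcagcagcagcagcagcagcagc
Muc6: aactagcagtcctcagactccacgcaccac
Son: aaccagcagtatggactcccagatgttagc
The Muc6 contig also held 30 junctions with at least 10 reads, the most used with 2018. Reads from near-identical repeats can align to more than 1 copy, and the part of this in the Muc6 junctions was not tested. The coding bases of the 47 contigs had a median GC content of 58.9% (49.0% to 68.5%), beside 53.7% for the coding sequences of 15478 genes with at least 10 read pairs.

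Linkers of epithelial junctions, cadherins and a chromatin regulator were also among the coding contigs. Dsp (desmoplakin, of desmosomes) had 3882 bases at 14.1, with its 3′ edge exactly at an annotated end and its gene at 15.5 and 17.4 TPM. Evpl (envoplakin) had 3051 bases at 24.4, with 17.7 and 17.1 TPM. Fat1, an atypical cadherin, had 4033 bases, all but 0.0248% of them coding, at a signal of 1.94, and Celsr1, a planar polarity cadherin, had 3896 bases at 3.02. The Kmt2d contig (a histone methyltransferase) had 3057 bases at 16.6. Ahnak, a giant scaffold protein whose longest exon is annotated at 17498 bases, gave a contig of 3376 bases at 4.84, so that only part of that exon was in this contig.

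Of the 82 contigs of mostly intron, 81 had a gene TPM, and for 72 it was 20 or more. By comparison, 188 of the 296 genes tied by junctions averaged 20 TPM or more. Of 11569 genes that averaged 1 TPM or more, 3313 did. Contigs were chosen for unbroken coverage, so this count is a description. Several of the intron contigs belonged to genes of gastric epithelium. The Pgc contig (pepsinogen C of chief cells; chr17:47865657-47871852, plus strand) covered the gene over 6196 bases at a signal of 26000, with 72.8% intron, 18.03% coding and 6.79% beyond the gene. Its summed coverage stood at the highest value the field holds (1073741823), reached by 2 contigs in the table, so its mean coverage cannot be read from that field. Pgc was at 101314 TPM in replicate 1 and 148481 in replicate 2. Within it lay 325 junctions with at least 10 reads, the most used with 4844044.

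Muc5ac, the mucin of surface pit cells, had a contig of 4983 bases at 481 (65.8% intron) and another of 3249 bases at 55.0 (65.5% intron), with 500 and 895 TPM. Tff2, the trefoil peptide of neck cells, had 3429 bases at 408 (77.3% intron), with 4430 and 2853 TPM. Atp4a, the catalytic subunit of the proton pump of parietal cells, had 5115 bases at 116 (76.03% intron), with 2697 and 1389 TPM. Its partner Atp4b had 3175 bases at 80.6 (95.9% intron), with 2272 and 1320 TPM. Pla2g1b, a secreted phospholipase, had 3303 bases at 413 (93.3% intron), and at 20666 and 33764 TPM it stood second to Pgc among tied genes. In Atp4b and Pla2g1b few junction reads lay inside the contig, 15 and 85 at the most used junction, and mean coverage was 109 and 98.8 times these. In Atp4a, Tff2 and the stronger Muc5ac contig the most used junction had 10129, 18083 and 45534 reads, and mean coverage was 0.233, 0.46 and 0.215 times these.

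Of the 15 contigs of highest signal, 5 had no majority. They were 1810010D01Rik (349 over 3226 bases), Ckb (302 over 3047 bases; brain-type creatine kinase, at 878 and 554 TPM), Klf4 (200.0 over 3106 bases; a transcription factor of epithelial differentiation, at 255 and 241 TPM), Srsf2 (171 over 3436 bases; a splicing factor, at 359 and 215 TPM) and Tmem259 (145 over 3724 bases, at 369 and 231 TPM). In Ckb 49.4% of the bases were intron and 37.5% coding.

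**Figure D3:**
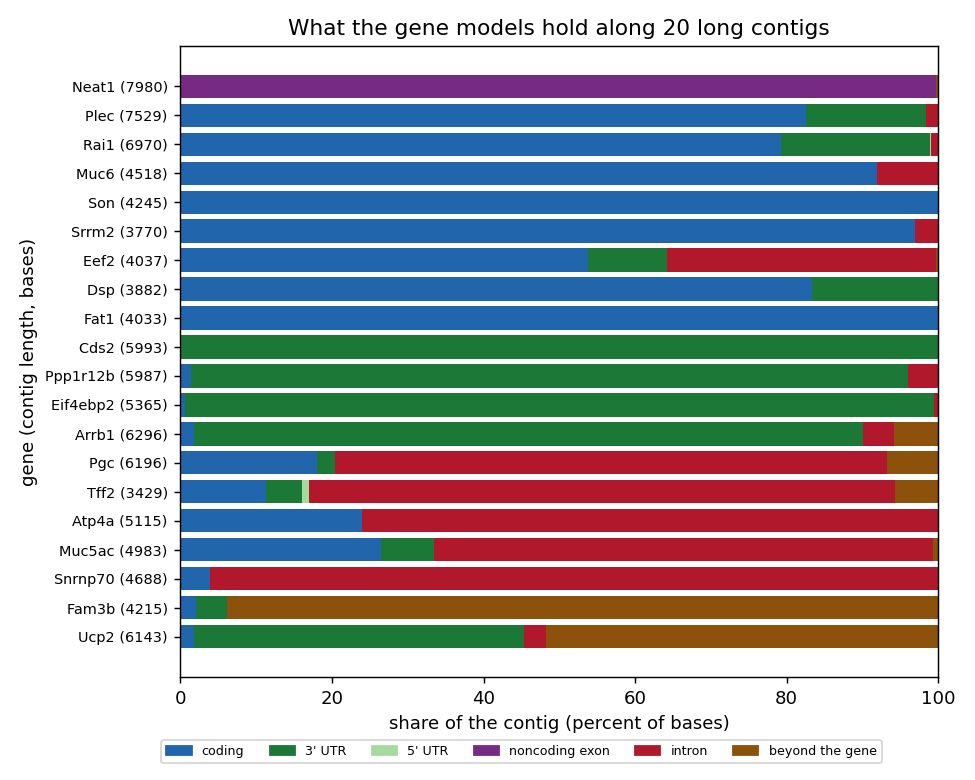
Each bar is 1 contig, with the gene and the contig length in bases at its left and the share of bases in coding sequence, 3′ UTR, 5′ UTR, noncoding exon, intron and beyond the gene along the x axis. Apart from Eef2, the upper bars are nearly filled by exon (Son 100% coding, Cds2 100% 3′ UTR), whereas Pgc, Tff2 and Atp4a are over 70% intron and Fam3b is 93.9% beyond the gene.

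Intron contigs were not limited to gastric genes. Snrnp70, a U1 snRNP protein, was 96.1% intron over 4688 bases at 36.4, and 75.3% of that intron lies in exons of other, fuller transcripts in the annotation. Ucp2, a mitochondrial carrier, had a contig of 5370 bases at 164 (78.2% intron) and, 500 bases downstream, one of 6143 bases at 119 that ran 3183 bases past the annotated end. Ucp2 had 976 and 572 TPM in replicates 1 and 2. Its read pairs were 104421 and 134877, a log2 ratio of 0.08 after scaling, and the transcript length averaged over its isoforms was 2055 and 3625 bases. AI480526, a noncoding RNA gene, had 5653 bases at 8.41 (52.0% intron), with 21.1 and 33.4 TPM. Across the 82 intron contigs, a median of 15.5% of the intron bases lay in exons of transcripts outside the basic set of M21.

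How coverage compares with splicing depended on which junctions were taken. On 114 short contigs of 120 to 400 bases that run exactly from an acceptor to a donor, each used by at least 50 reads, mean coverage was a median of 1.24 times the junction reads at their edges (quartiles 0.907 and 1.61). For 72 intron contigs, mean coverage was a median of 0.457 times the reads of the most used junction inside them (quartiles 0.255 and 1.08), and a median of 24.8% of the bases of the 82 intron contigs was exon. The 45 contigs without a majority were at 0.528. In 28 contigs of mostly 3′ UTR and 17 coding ones with a junction of at least 10 reads inside, the same ratio was 3.51 and 3.58. The same condition held for the intron contigs and those without a majority. Over the median reads of all junctions with at least 10 reads that end at or inside a contig, mean coverage was a median of 1.58 times for intron contigs (quartiles 1.03 and 2.64), 2.32 for those without a majority, 2.69 for 3′ UTR and 3.21 for coding contigs. The denominators of these ratios differ, so the value of the short contigs is no reference for the ratio to the most used junction.

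**Figure D4:**
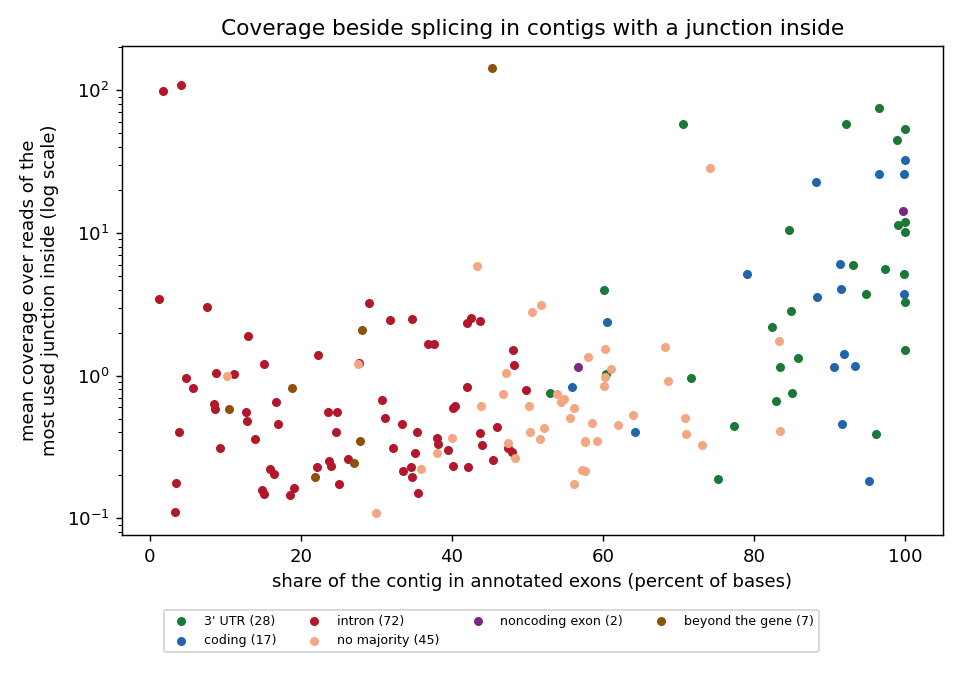
Points are the contigs with a junction of at least 10 reads inside, with the percent of their bases in annotated exons on the x axis and their mean coverage divided by the reads of the most used inside junction on a log y axis, coloured by kind. Intron contigs have a median of 0.457, and 3′ UTR and coding contigs medians of 3.51 and 3.58, with wide overlap.

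Set beside the gene's abundance, the signal also differed between kinds. The signal divided by the gene's mean FPKM (fragments scaled to transcript length and depth) had a median of 0.726 in 3′ UTR contigs (quartiles 0.521 and 0.906) and 0.813 in coding ones (0.53 and 0.989), against 0.198 in intron contigs (0.101 and 0.342). Tnks1bp1 was low among the coding contigs at 0.0379, and Kif13b, a kinesin, was high among the 3′ UTR contigs at 3.27. These 2 were chosen after their values were seen.

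Contigs beyond annotated ends numbered 13. In Fam3b (a secreted protein) 93.9% of 4215 bases lay outside the gene, and in Capn8, the stomach calpain, 89.5% of 4244 bases did, with the 3′ edge 3956 and 3799 bases past the nearest annotated end. Fam3b was at 92.4 and 72.4 TPM and Capn8 at 10.7 and 14.5. Their contig signals were 9.19 and 5.34. Fendrr, a noncoding RNA of foregut mesenchyme, had 3893 bases at 7.88, of which 58.6% lay outside the gene.

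Of the nuclear noncoding RNAs, Neat1 (the scaffold of paraspeckles) gave the longest contig of all. Its 3 contigs lie on the minus strand of chromosome 19 and, in the direction of transcription, were 7980 bases at a signal of 52.8 (chr19:5837518-5845497), 5266 bases at 15.9 after a gap of 1009 bases, and 7306 bases at 12.2 after a gap of 21 bases. The first ran 4789 bases past the end of the nearest, short annotated transcript. Transcripts that covered it held 5.34% and 6.82% of the gene's 191 and 300 TPM in replicates 1 and 2. Malat1, its neighbour and a nuclear speckle RNA, was named by position for a contig of 3129 bases at 19.8, with 16.8 and 54.5 TPM. Meg3, an imprinted noncoding RNA, had 3931 bases at 47.8 (75.2% intron), with 172 and 171 TPM.

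Among the 19 contigs without a gene, the strongest was one of 5837 bases on chr17:39979939-39985775 (plus strand), which had a signal of 6320 and held 77 inside junctions with at least 10 reads. The mouse assembly carries a copy of the ribosomal RNA precursor there, as background, and the libraries were depleted of ribosomal RNA. Both contigs of the mitochondrial chromosome lay on the plus strand, at chrM:1094-5064 with a signal of 88.9 and at chrM:11755-15289 with a signal of 234. Mitochondrial RNA is made as long precursors that are cut at transfer RNAs. The next longest without a gene, on chr4:155589470-155595005 (minus strand), had 5536 bases at a signal of 4.68. A pair of untied contigs on chromosome 9 had the same length of 3172 bases, at chr9:108012535-108015706 with a signal of 1.66 and at chr9:108016930-108020101 with a signal of 1.80.

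There were 10 contigs with no junction end at or inside them, led by Cds2 at 5993 bases. Next in length were Usf3, a transcription factor, at 4386 bases and 2.52, Tbc1d16 at 3979 bases and 2.99, Mrs2, a mitochondrial magnesium channel, at 3530 bases and 8.25, an unplaced contig of 3189 bases at 2.53, and Fzd5 at 3165 bases and 2.56. Fem1a, placed by its neighbours, had 5497 bases at 18.2, with 17.7 and 13.4 TPM.

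Several contigs joined more than 1 gene. In 6, junctions of a second gene on the same strand lay inside. The longest of them, 6927 bases on chr17:25967471-25974397 (minus strand) at 26.6, held Rhbdl1, a rhomboid-family protease gene, and Stub1, the ubiquitin ligase CHIP. The others held Syt8 with Tnni2, Pdia2 with Arhgdig, Lrch4 with Sap25, Lime1 with Zgpat and Zbtb22 with Tapbp. No contig overlapped another long contig on the opposite strand, but 97 of the 377 (25.7%) overlapped a shorter contig there, beside 21.3% of the 1200 contigs of 2000 to under 3000 bases with a signal of at least 1. In 16 the opposite signal was at least 10% of the contig's own, and in 6 it was at least 100%, the highest at Mfsd12, a lysosomal transporter, with 588%.

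A junction lay wholly inside 301 (79.8%), beside 67.8% of those 1200 shorter contigs, and a longer contig has more room for one. The 5′ edge lay within 10 bases of an acceptor in 66 (17.5%) and in 17.3% of the shorter ones, and the 3′ edge lay within 10 bases of a donor in 28 (7.43%) and 6.0%. Over all 331878 contigs outside the long ones these shares were 20.9% and 21.8%. Within the long contigs, acceptors at the 5′ edge were found in 14 of 47 coding and 36 of 146 3′ UTR contigs, but in 6 of 82 intron contigs. Donors at the 3′ edge were found in 15 coding contigs and in 0 of the 146 3′ UTR contigs, as last exons have none. Together the 377 contigs hold 1.61% of contig bases and 14.8% of summed coverage, where the summed coverage of Pgc counts only at the highest value of its field. Their signals reached 26000 with a median of 12.4, and the part of the 14.8% held by the few strongest contigs was not measured.

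The fixed gene lists were measured next, counting only genes that averaged 1 TPM or more. The background share was 3.02% among all such genes and 8.75% among those with an exon of at least 3000 bases. It was 26.4% among those that also averaged 20 TPM or more. The lists differ from each of these backgrounds in exon length and abundance. The gastric epithelium list had a median of 556 TPM over all 23 of its genes. Of 26 coding genes with very long exons, 12 had a long contig. The median was 4.72 TPM over all 39 matched genes of this list, also those under 1 TPM. Macf1 (20.2 TPM) and Prrc2a (250 TPM) had none. Of 22 gastric epithelium genes 7 had one, but not Tff1 (29206 TPM), Gkn1 (14818 TPM), Gkn2 (7230 TPM) or Ctse (723 TPM). Of 18 smooth muscle and wall genes, Myh11 (4.53 over 3892 bases), Synpo2 (3.01 over 3118 bases) and Pdlim7 (51.6 over 3280 bases) had one, but not Acta2 (1213 TPM), Actg2 (1000 TPM), Flna (665 TPM) or Des (573 TPM). Of 19 squamous epithelium genes, Dsp and Evpl had one, but not Sprr3 (1207 TPM), Lor (668 TPM), Sprr1a (621 TPM) or Krt13 (587 TPM). Of 10 long noncoding RNAs 3 had one, and Gm42418 (5845 TPM) and Gm26917 (865 TPM) were not tied to any. Whether Gm42418 or Gm26917 lies under a long contig that was left without a gene was not tested, so a missing tie need not mean a missing contig. Of 36 genes known for long 3′ UTRs, only Ago2 had one, at 3.94 over 5007 bases. The median was 3.77 TPM over all 40 genes of that list. None of the 19 extracellular matrix genes had one, among them Col1a1 (68.8 TPM) and Col1a2 (78.7 TPM). None of the 15 mitochondrial genes was tied, since the ties need introns. These lists were drawn up with earlier results of these data known, and no count here is a test.

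Between the 2 libraries, scaled log2 ratios of replicate 2 over replicate 1 had a median of -0.11 over the 296 genes tied by junctions, and 99.3% of these differed by less than 2-fold. The sets beside them differ in abundance. Over 11569 genes that averaged 1 TPM or more the median was -0.05 and 91.4% differed by less than 2-fold, and over 3313 genes that averaged 20 TPM or more the median was -0.24 and the share 90.3%. With n = 2 and 1 group there is no test of these differences, and the 95% exact Clopper-Pearson intervals below cover counting error only. The lowest ratio was that of Scd1, a fatty acid desaturase, at 31.2 and 9.12 TPM and a log2 ratio of -1.81 (interval -1.87 to -1.75), over a contig of 3635 bases at 13.5. Next came Tmprss9, a serine protease (-1.13), Zfpm1, a GATA cofactor (-0.95), Dapk3 (-0.91), Mfsd12 (-0.90) and Ssbp4 (-0.88). The highest were Pdia2, a pancreatic-type disulfide isomerase (0.95, interval 0.90 to 0.99), Fendrr (0.87), Myh11, the smooth muscle myosin (0.84), Neat1 (0.83), Muc5ac (0.82) and Pla2g1b (0.75). Of the genes tied by junctions, none was 2-fold or more higher in replicate 2, and Scd1 and Tmprss9 were so in replicate 1. Of those placed in other ways, Malat1 (16.8 and 54.5 TPM, log2 ratio 1.49) and Atf7, a transcription factor (13.99 and 37.1 TPM, 1.16), were more than 2-fold higher in replicate 2.

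**Figure D5:**
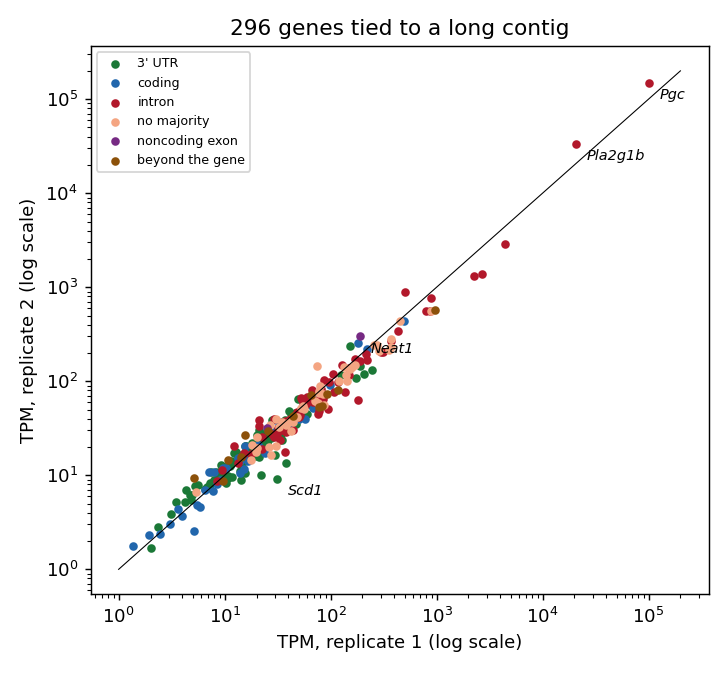
Each point is 1 of 296 genes tied to a long contig, with its TPM in replicate 1 on the x axis and in replicate 2 on the y axis, both on log scales, coloured by the kind of its longest junction-tied contig, and the line marks equal values. Points follow the line from about 1 to over 100000 TPM, with Scd1 furthest under it (31.2 and 9.12 TPM).

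By kind, genes of 3′ UTR contigs were split evenly, 74 higher in replicate 2 and 72 in replicate 1. Their median log2 ratio was 0.01 (-0.01 with DESeq2 size factors and 0.07 from TPM), and those of coding contigs 23 and 23. Genes of intron contigs were higher in replicate 1 in 56 and in replicate 2 in 24, at a median of -0.18 (-0.21 with DESeq2 size factors and -0.16 from TPM). Genes of contigs without a majority split 33 to 13 in the same direction, at a median of -0.18 (-0.20 and -0.16). In percent, 70.0 of the genes of intron contigs and 71.7 of those without a majority were higher in replicate 1, against 54.4 of all genes that averaged 1 TPM or more and 74.8 of those that averaged 20 TPM or more. Some cell type markers were also higher in replicate 1, with Atp4b at 2272 and 1320 TPM and Des at 806 and 340. So were Lor at 1056 and 281, Hba-a1 at 261 and 77.8 and Tff1 at 31488 and 26924. Others were higher in replicate 2, among them Pgc, Muc5ac, Gkn1 (12529 and 17106 TPM) and Myh11 (21.1 and 38.8 TPM). Markers of smooth muscle (Des, Myh11) and of pit cells (Tff1, Gkn1) thus went both ways. The part of these markers in the counts was not tested. Coverage of introns was pooled over both libraries, so whether it differed between them was not measured.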

How the data were processed

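Per the labels and the notes beside the tables, the authors deposited contigs and splice junctions on mm9 as pooled tables, and gene and transcript tables per library on mm10 with GENCODE M4. The deposited contig table gives signal, summed coverage and a significance score, and the deposited junction table gives read counts. The deposited gene and transcript tables give expected counts, TPM and FPKM. The sources used here name no aligner or caller.

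Contigs of at least 3000 bases and signal 1 were taken. Junctions were matched to GENCODE M21 introns by chromosome, strand, length and spacing. A gene was tied to a contig when at least 2 of its introns matched at 1 shift and 1 ended within 10 bases of the contig or inside it. After seeing the data, a further condition was added: the shift had to be shared by 20 junctions of the chromosome or 4 of the gene. Kinds need 50% of bases in basic transcripts, a threshold set after seeing the data. No coordinates were converted. Ratios used edgeR 4.0.16 (TMM, prior count 2) on rounded expected counts, with DESeq2 1.42.0 as an alternative. Of these methods, the tie through junctions was tested on simulated junctions moved by 1 shift, and the ratios on simulated counts.

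Named were the 15 longest and 15 strongest contigs, the mitochondrial ones, up to 6 contigs and 4 genes without one (TPM of at least 20) per list, the 6 highest and 6 lowest ratios, the 6 with most inside junction reads, the 6 longest without junctions and those at the threshold. Other contigs were named after their values were seen. Members and lists were chosen with earlier results of these data known.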

Additional observations from a re-analysis of the deposited data

How the results depend on the processing

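With a minimum length of 2500 bases 745 contigs qualified, and with 4000 bases 104, whereas a minimum signal of 0.5 or 2 gave 377 and 371. Ties to genes stayed between 273 and 308 under stricter or looser junction matching, and reached 358 with contigs placed by distance or neighbours, which was added after seeing the data. Counting only junctions with at least 10 reads, 181 contigs held one. A splice acceptor lay within 2 bases of the 5′ edge in 43 and within 50 bases in 101. The median TPM of tied genes was 29.99 without replicate 1, 30.82 without replicate 2 and 32.8 as FPKM. The median log2 ratio was -0.053 from TPM. No paired analysis was possible because there is 1 group. Contig and junction tables pool the libraries, so no contig value has an error between replicates.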
